A study of Mus musculus with 8 samples.

Results

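The 10 genes described here encode the subunits of the transcription factor NF-kB and the proteins that restrain it or feed back on it. The subunit genes are Rela, Rel, Nfkb1, Relb and Nfkb2, and the feedback genes are Nfkbia, Nfkbie, Tnfaip3, Nfkbiz and Bcl3. They were taken by symbol from a table of 54532 mouse genes, in which each symbol named 1 gene, and all 10 were among the 13560 genes with enough reads to be tested. The study deleted Zeb1, a zinc finger repressor of epithelial genes, in blood cells, and divided the deleted LSK cells of the bone marrow by surface EpCAM, an epithelial adhesion molecule. LSK cells lack lineage markers, carry SCA-1 and C-KIT, and include hematopoietic stem cells and early progenitors (HSPCs). Sequenced were 4 EpCAM+ and 4 EpCAM- samples, which asks how cells that carry EpCAM after loss of Zeb1 differ from those that do not.

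All 8 samples came from C57BL/6 mice of genotype Zeb1 fl/fl;Mx1-Cre+/-, aged 8 to 12 weeks, that had received pIpC, and cells were taken 14 days after the last dose. Both fractions came from mice treated to delete Zeb1, and no library from undeleted control mice was part of this comparison. Mx1-Cre is switched on by interferon, which pIpC induces, and it also recombines outside blood cells. The labels state 4 mice per genotype and give replicate numbers 1 to 4 in each fraction, without saying whether equal numbers mark the same mouse.

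NF-kB proteins bind DNA as dimers. In the canonical arm, kinases of the IKK complex mark the inhibitor IkBa for destruction, and dimers of RelA or c-Rel with the Nfkb1 product enter the nucleus. In the noncanonical arm, the kinase NIK, encoded by Map3k14, leads to processing of the Nfkb2 product, the partner of RelB. Several genes of the pathway are themselves targets of NF-kB, so that the inhibitors are made again after the dimers have acted, and in the bone marrow the pathway is known for its part in the survival of progenitors and in the maturation of lymphoid and dendritic cells.

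Gene counts summed to 15225714 to 17073546 per EpCAM+ library and to 14114491 to 15929923 per EpCAM- library. Reads are given here as CPM, the share of a library's counts scaled by the TMM method, and a count of 3 corresponded to 0.168 to 0.222 CPM. Epcam, the gene of the sorting marker, measured 187 ± 32.7 CPM in EpCAM+ and 3.86 ± 3.61 CPM in EpCAM- libraries (SD, n = 4 each). Zeb1, the deleted gene, still gave 261 to 373 counts in EpCAM+ and 129 to 214 counts in EpCAM- libraries. It was higher in EpCAM+ cells (1.64-fold, log2 fold change 0.72, adjusted p = 0.00798), without overlap between the fractions. Reads outside the deleted segment do not show how far the deletion went. Stem and progenitor genes were read in all libraries, with summed CPM of 6838 to 7365 in EpCAM+ and 4906 to 6342 in EpCAM- libraries. EpCAM+ replicate 1 stood apart in genes of antibody-producing cells, with 20196 summed CPM of the B cell list against 1364 to 2157 in the other EpCAM+ libraries and 165 to 322 in EpCAM- libraries, mostly from the antibody gene Ighm. EpCAM+ replicates 1 and 4 stood apart in the dendritic cell list, with 16874 and 17479 summed CPM, against 1742 and 4859 in EpCAM+ replicates 2 and 3 and 530 to 873 in EpCAM- libraries.

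Of the 10 genes, 6 were higher in Zeb1-/- EpCAM+ cells, none was lower, and 4 did not pass the test. The count of lower genes was also 0 at an unadjusted p under 0.05, and 0 with DESeq2 or limma-trend. The genes that rose were Nfkbiz, Relb, Nfkbia, Nfkbie, Nfkb2 and Tnfaip3, with fitted increases from 1.43-fold to 3.15-fold, whereas Rela, Nfkb1, Rel and Bcl3 did not pass. With a block for each replicate number, Bcl3 passed (adjusted p = 0.000114) and Tnfaip3 did not (adjusted p = 0.0501), and the other 8 calls stayed. Across all tested genes, 42.6% passed the same test, 21.8% as higher and 20.8% as lower in EpCAM+ cells (quasi-likelihood test of edgeR, adjusted by Benjamini-Hochberg, threshold 0.05). Calls were split about evenly at 51.2% higher, and this share became 63.6% with upper-quartile scaling and 62.7% with library totals. The median log2 fold change was 0.72 over the 10 genes and 0.02 over all tested genes. In 5 of the 10 genes every EpCAM+ library lay above every EpCAM- library, a pattern seen in 20.1% of tested genes, and 40.1% of tested genes were separated in either direction. Increases above 2-fold that passed the test were found in 2 of the 10 genes and in 9.15% of all tested genes. In bulk RNA, fewer cells of a type and less RNA per cell cannot be told apart, so each value below is an average over a sorted fraction.

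**Figure D1:**
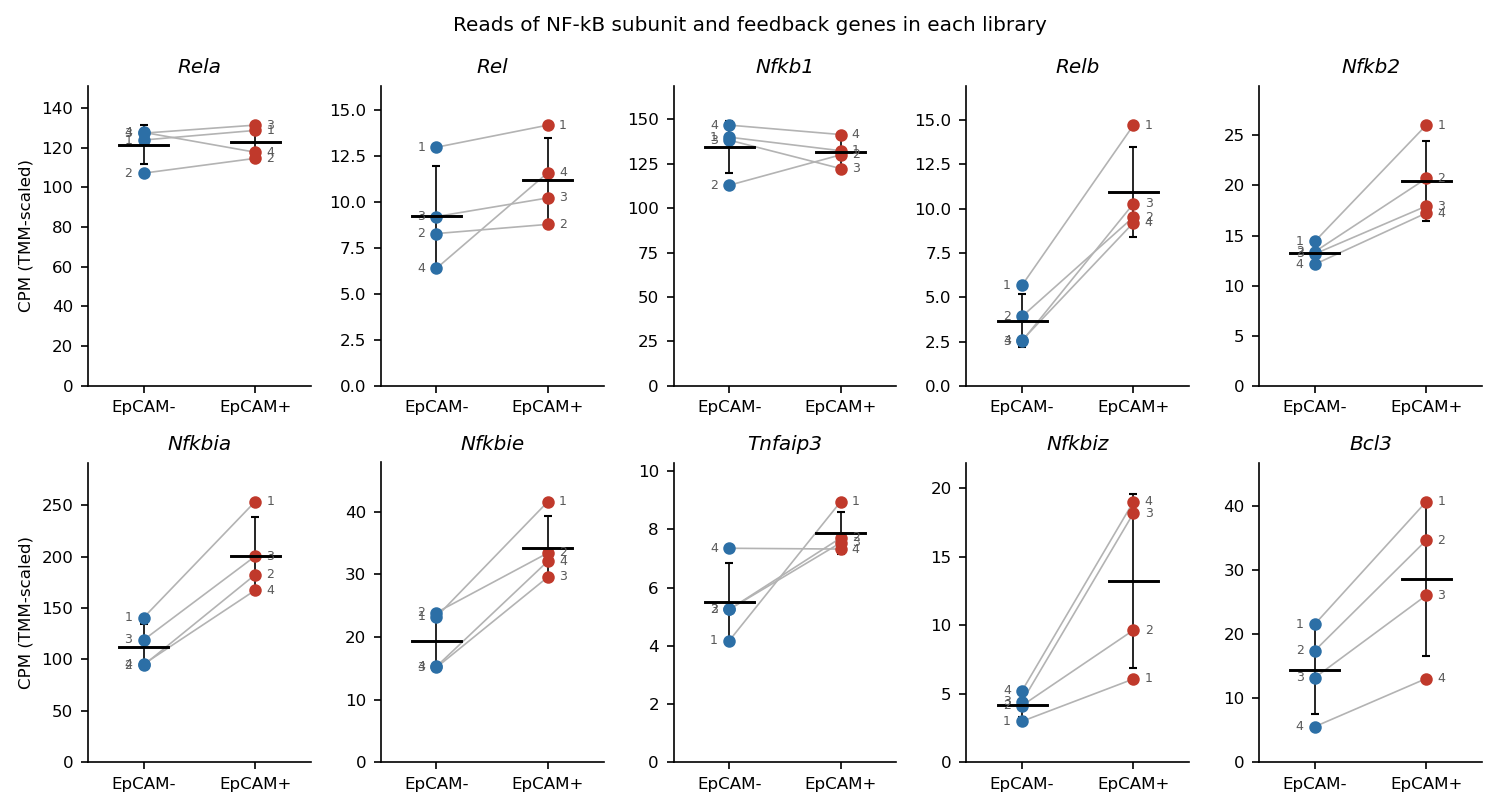
Reads of the 10 genes in each library, in CPM on axes that start at 0, with EpCAM- libraries in blue and EpCAM+ libraries in red. Grey lines join equal replicate numbers, black bars are means and error bars are SD (n = 4). Rela and Nfkb1 sit between 107 and 147 CPM in both fractions, while Relb, Nfkb2, Nfkbia, Nfkbie and Nfkbiz show no overlap.

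Because several of these genes are known NF-kB targets, their start regions were searched for the kB consensus, the DNA element that NF-kB dimers bind, on both strands. RefSeq windows on GRCm38.p6 (250 bases before to 50 after each start) were given for 7 of the 10 genes, in 10 windows. Nfkb1, Relb and Nfkbiz had no entry. The kB consensus was present in 6 of these 7 genes, all but Rela, and in 9.55% of all 27025 genes. Per window, it was present in 8 of these 10 and in 8.46% of all 32851. A looser form that keeps only the outer bases (GGGNNNNNCC) occurred in all 7, but also in 53.5% of all genes. A match of letters is a description of the sequence and does not show binding.

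The 250 bases before the start are shown for the 5 genes that had a match there, read in the direction of transcription, with matches in capitals. The choice rested on the match alone. Nfkbia, Nfkbie, Nfkb2 and Tnfaip3 passed the test as higher, and Rel did not pass. The 95% interval of the Rel log2 fold change (-0.22 to 0.77) holds the fold changes of Nfkb2 and Tnfaip3.
Nfkbia, chr12:55492648-55492897, minus strand: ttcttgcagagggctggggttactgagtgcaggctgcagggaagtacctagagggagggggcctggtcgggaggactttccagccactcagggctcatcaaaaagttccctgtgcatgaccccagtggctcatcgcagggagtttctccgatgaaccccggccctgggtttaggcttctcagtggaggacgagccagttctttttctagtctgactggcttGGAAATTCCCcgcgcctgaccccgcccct
Nfkbie, chr17:45555450-45555699, plus strand: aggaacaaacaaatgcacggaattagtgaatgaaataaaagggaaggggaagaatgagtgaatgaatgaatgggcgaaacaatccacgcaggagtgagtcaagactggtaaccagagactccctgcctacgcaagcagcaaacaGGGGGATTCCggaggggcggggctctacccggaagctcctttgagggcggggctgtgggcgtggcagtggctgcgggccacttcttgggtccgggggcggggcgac
Nfkb2, chr19:46304487-46304736, plus strand: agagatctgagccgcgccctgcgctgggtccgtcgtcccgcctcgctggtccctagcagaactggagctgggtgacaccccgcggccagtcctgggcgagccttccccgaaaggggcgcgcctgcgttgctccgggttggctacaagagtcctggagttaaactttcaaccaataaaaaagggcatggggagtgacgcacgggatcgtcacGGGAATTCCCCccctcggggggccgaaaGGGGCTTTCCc
Tnfaip3, chr10:19015411-19015660, minus strand: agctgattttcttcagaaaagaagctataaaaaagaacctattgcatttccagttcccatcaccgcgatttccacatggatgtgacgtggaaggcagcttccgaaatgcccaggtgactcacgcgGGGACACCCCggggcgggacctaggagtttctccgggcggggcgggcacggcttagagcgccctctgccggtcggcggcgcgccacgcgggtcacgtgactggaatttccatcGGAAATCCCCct
Rel, chr11:23770970-23771219, minus strand: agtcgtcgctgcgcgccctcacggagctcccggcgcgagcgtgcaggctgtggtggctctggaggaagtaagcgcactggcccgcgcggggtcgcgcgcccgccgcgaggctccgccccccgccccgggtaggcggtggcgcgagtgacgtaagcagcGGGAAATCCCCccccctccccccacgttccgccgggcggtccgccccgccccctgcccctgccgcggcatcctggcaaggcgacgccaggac

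In Nfkbia the match lay 29 to 20 bases before the start, and in Nfkbie 106 to 97 bases before it. The first Nfkb2 window held matches that overlap each other, beginning 39 and 38 bases before the start, and another beginning 11 bases before it. The windows at Nfkb2 starts further into the gene share GGGACTTTCC, and the earlier of them also held GGAATGTCCC. Tnfaip3 held matches beginning 125 and 12 bases before the start, and its second window, at a start within the gene, held none. In Rel the matches began 92 and 91 bases before the start and overlap, so they form 1 run of capitals. Bcl3 held GGGAAGTCCC beginning 3 bases after its start. At least 2 matches occurred in 1.22% of all windows, a class that holds windows of Nfkb2, Tnfaip3 and Rel. Overlapping matches were counted separately here, and Rel is in this class only through its overlapping matches.

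The canonical subunits Rela and Nfkb1 were the most heavily read subunit genes, and neither differed detectably between the fractions. Rela (ENSMUSG00000024927, chr19:5637483-5648130, plus strand), which encodes the main activating subunit, gave 129, 115, 131 and 118 CPM in EpCAM+ replicates 1 to 4 and 124, 107, 127 and 128 CPM in EpCAM- replicates 1 to 4. These values overlapped throughout. Its log2 fold change, EpCAM+ over EpCAM-, was 0.02 (SE 0.08, adjusted p = 0.868), and its 95% interval ran from -0.16 to 0.19, which leaves room for only small differences in either direction.

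Nfkb1 (ENSMUSG00000028163, chr3:135584655-135691547, minus strand) encodes the precursor of the usual partner of RelA. It gave 132, 130, 122 and 141 CPM in EpCAM+ libraries and 140, 113, 138 and 147 CPM in EpCAM- libraries, again with overlap. Its log2 fold change was -0.03 (SE 0.09, adjusted p = 0.793; 95% interval -0.23 to 0.17), and its sign turned with upper-quartile scaling (0.0543). Rel (ENSMUSG00000020275, chr11:23736847-23770970, minus strand), which encodes c-Rel, a subunit used mainly in lymphoid and myeloid cells, was read far less.

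Rel gave 14.2, 8.79, 10.2 and 11.6 CPM in EpCAM+ libraries and 13.0, 8.29, 9.21 and 6.40 CPM in EpCAM- libraries. The fractions overlapped, although each EpCAM+ library lay above the EpCAM- library of the same number, by 1.06 to 1.81 times, with the largest ratio in replicate 4. Its log2 fold change of 0.28 (SE 0.22) did not pass (adjusted p = 0.341), and the 95% interval of -0.22 to 0.77 was wide enough to hold the fold changes of Nfkb2 and Tnfaip3.

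The subunits of the noncanonical arm rose together. Relb (ENSMUSG00000002983, chr7:19606217-19629438, minus strand), which encodes the activating subunit of that arm, gave 14.7, 9.53, 10.3 and 9.21 CPM in EpCAM+ libraries and 5.68, 3.92, 2.53 and 2.57 CPM in EpCAM- libraries. The lowest EpCAM+ library lay above the highest EpCAM- library. Relb rose 2.96-fold, a log2 fold change of 1.56 (SE 0.28, adjusted p = 0.00172), with the smallest adjusted p of the 10 genes in the unpaired fit. With the replicate block, Nfkbia and Bcl3 had smaller ones, and with upper-quartile scaling Nfkbia did.

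Nfkb2 (ENSMUSG00000025225, chr19:46304737-46312090, plus strand) encodes the precursor that is cut to the partner of RelB. It gave 26.0, 20.7, 17.9 and 17.2 CPM in EpCAM+ libraries and 14.4, 13.4, 13.2 and 12.1 CPM in EpCAM- libraries, without overlap. This was a 1.54-fold increase (log2 fold change 0.62, SE 0.14, adjusted p = 0.00596). On both genes replicate 1 was the highest library of its fraction. Leaving out any 1 library kept the log2 fold change of Relb between 1.38 and 1.85 and that of Nfkb2 between 0.48 and 0.69, with both calls kept.

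The protein-coding genes whose log2 CPM followed Relb most closely over the 8 libraries were Alcam, Snx21 and F11r, by the root-mean-square difference of centred values (0.16, 0.17 and 0.19 in log2 units). Alcam, which encodes an adhesion molecule of the immunoglobulin family, measured 19.7 CPM in EpCAM+ and 6.22 CPM in EpCAM- libraries. F11r, which encodes a tight junction adhesion molecule, measured 91.4 and 28.8 CPM, and Snx21, a sorting nexin gene, measured 3.71 and 1.36 CPM.

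Nfkbia and Nfkbie, genes of inhibitors that hold NF-kB in the cytoplasm, were higher in EpCAM+ cells at every replicate number. Nfkbia (ENSMUSG00000021025, chr12:55489410-55492647, minus strand), which encodes IkBa, the main and rapidly resynthesized inhibitor, gave 253, 182, 200 and 167 CPM in EpCAM+ libraries and 141, 94.5, 119 and 95.5 CPM in EpCAM- libraries. All EpCAM+ values lay above all EpCAM- values. Nfkbia rose 1.78-fold (log2 fold change 0.84, SE 0.16, adjusted p = 0.00225), and the ratio within equal replicate numbers varied little, from 1.68 to 1.93.

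Nfkbie (ENSMUSG00000023947, chr17:45555703-45563169, plus strand) encodes IkBe, a slower inhibitor of the same family. It gave 41.6, 33.4, 29.6 and 32.1 CPM in EpCAM+ libraries and 23.2, 23.9, 15.2 and 15.3 CPM in EpCAM- libraries, without overlap. Its log2 fold change of 0.82 (SE 0.18, adjusted p = 0.00455) lay close to that of Nfkbia. Nfkbib, the gene of a further inhibitor of this kind, moved the other way, from 87.2 CPM in EpCAM- to 68.5 CPM in EpCAM+ libraries (log2 fold change -0.35, adjusted p = 0.00361).

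Tnfaip3 (ENSMUSG00000019850, chr10:19000910-19015657, minus strand) encodes a ubiquitin-editing enzyme that shuts down signalling upstream of the IKK complex. The study showed it among antiapoptotic genes chosen on these same samples, so its direction is not independent evidence. It gave 8.96, 7.71, 7.54 and 7.33 CPM in EpCAM+ libraries and 4.18, 5.25, 5.26 and 7.35 CPM in EpCAM- libraries.

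EpCAM- replicate 4 reached the EpCAM+ range, and the other EpCAM- libraries lay below it. The log2 fold change of Tnfaip3 was 0.52 (SE 0.19), only just past the threshold (adjusted p = 0.0481), and it missed it when equal replicate numbers were modelled as blocks (adjusted p = 0.0501). Without EpCAM- replicate 4 it passed (adjusted p = 0.0137), and without any other single library it did not (adjusted p = 0.0669 to 0.117).

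The genes of nuclear members of the inhibitor family, which act on NF-kB at the DNA, gave the largest fold change and the widest spread. Nfkbiz (ENSMUSG00000035356, chr16:55811375-55838899, minus strand) encodes IkBz, which is induced by Toll-like receptor and interleukin signals and switches on a second wave of target genes. It gave 6.08, 9.64, 18.2 and 19.0 CPM in EpCAM+ libraries and 3.00, 4.14, 4.44 and 5.22 CPM in EpCAM- libraries. The fractions did not overlap, and the EpCAM+ libraries themselves ranged over 3.12 times. Nfkbiz rose 3.15-fold (log2 fold change 1.66, SE 0.35, adjusted p = 0.00408), and replicate 1, the highest EpCAM+ library for 7 of the 10 genes, was the lowest here in both fractions.

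Bcl3 (ENSMUSG00000053175, chr7:19808462-19822770, minus strand) encodes a coactivator that joins dimers of the Nfkb1 or Nfkb2 products. It gave 40.7, 34.7, 26.1 and 13.1 CPM in EpCAM+ libraries and 21.6, 17.5, 13.2 and 5.59 CPM in EpCAM- libraries. The fractions overlapped because replicate 4 was low in both. Each EpCAM+ library nevertheless held 1.89 to 2.34 times the CPM of the EpCAM- library of the same number.

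The unpaired log2 fold change of Bcl3 was 0.98 (SE 0.40) and did not pass (adjusted p = 0.0701). With a block for each replicate number it was 1.01 (SE 0.09, adjusted p = 0.000114), and leaving out any 1 replicate number from that fit kept the call (adjusted p = 0.000241 to 0.00203). In the unpaired fit the call was also gained without EpCAM+ replicate 4 (adjusted p = 0.0244) or without EpCAM- replicate 1 (adjusted p = 0.0421). The blocked fit called 6 of the 10 genes higher, gaining Bcl3 and losing Tnfaip3, against 25.6% of all tested genes called higher and 50.3% called in either direction. Counting signs alone, 7 of the 10 genes were higher in EpCAM+ cells at every replicate number, against 32% of tested genes.

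**Figure D2:**
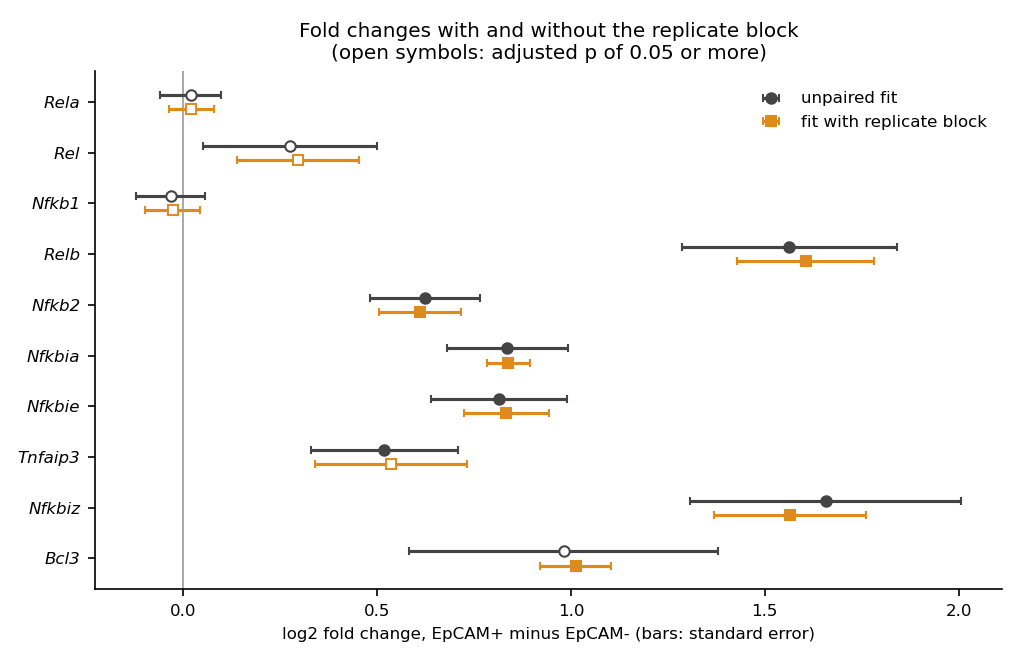
Log2 fold change of EpCAM+ over EpCAM- for the 10 genes, with bars for the standard error. Circles are the unpaired fit, squares the fit with blocks for replicate numbers, and open symbols have an adjusted p of 0.05 or more. Only Bcl3 and Tnfaip3 change from open to filled or back, and the bar of Bcl3 shrinks from 0.40 to 0.09.

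Levels of different genes were compared only per length, as TPM, the scaled ratio of reads to the gene length listed with them. Nfkbia stood highest in both fractions, at 317 ± 42.7 TPM in EpCAM+ and 179 ± 42.7 TPM in EpCAM- libraries (SD, n = 4 each). Rela came next at 116 ± 10.1 and 114 ± 11.8 TPM. The ranges of these genes did not overlap with each other or with any other of the 10 in either fraction.

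Behind them in EpCAM+ libraries came Bcl3 (29.4 TPM), Nfkbie (28.5) and Nfkb1 (27.8), whose ranges overlapped, and then Nfkb2 (15.8), which overlapped only with the wide range of Bcl3. In EpCAM- libraries Nfkb1 (28.4 TPM) stood apart from Nfkbie (16.2) but not from Bcl3, which ranged from 5.59 to 23.4 TPM, and Nfkb2 followed at 10.3 TPM. Relb rose from 2.42 TPM in EpCAM- to 7.12 TPM in EpCAM+ libraries, Nfkbiz from 2.12 to 6.83 TPM and Tnfaip3 from 1.93 to 2.78 TPM. Rel stood at 3.17 and 3.79 TPM, and in EpCAM- libraries it overlapped with Relb, Nfkbiz and Tnfaip3.

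The order depends on the length assigned to each gene. The deposited FPKM values imply shorter lengths for most genes (median 0.66 of the listed length), and for Nfkb1 2706 bases in place of 12061. By those lengths the mean of Nfkb1 was 58.9 ± 2.35 TPM in EpCAM+ and 57.7 ± 7.36 TPM in EpCAM- libraries (SD, n = 4 each). That of Rela was lower, at 55.0 ± 4.19 and 51.9 ± 5.19 TPM, with overlapping SD ranges in both fractions. Bcl3 followed at 45.4 ± 18.7 TPM in EpCAM+ and 22.1 ± 10.9 TPM in EpCAM- libraries. Nfkbia stayed on top at 214 and 115 TPM.

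Among the 5 subunit genes, Nfkb1 and Rela together made up 84.3% ± 2.27 of the summed TPM in EpCAM+ libraries and 89.9% ± 1.71 in EpCAM- libraries (SD, n = 4 each). Relb and Nfkb2 made up 16.3, 13.9, 11.9 and 11.9% in EpCAM+ replicates 1 to 4 and 9.02, 9.24, 7.25 and 6.76% in EpCAM- replicates 1 to 4. The share of the noncanonical subunits was thus higher in every EpCAM+ library than in any EpCAM- library. With the lengths implied by FPKM it was 9.39 to 13.7% in EpCAM+ and 4.80 to 7.03% in EpCAM- libraries, again without overlap. This share uses the same reads as the fold changes above and was not tested on its own.

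**Figure D3:**
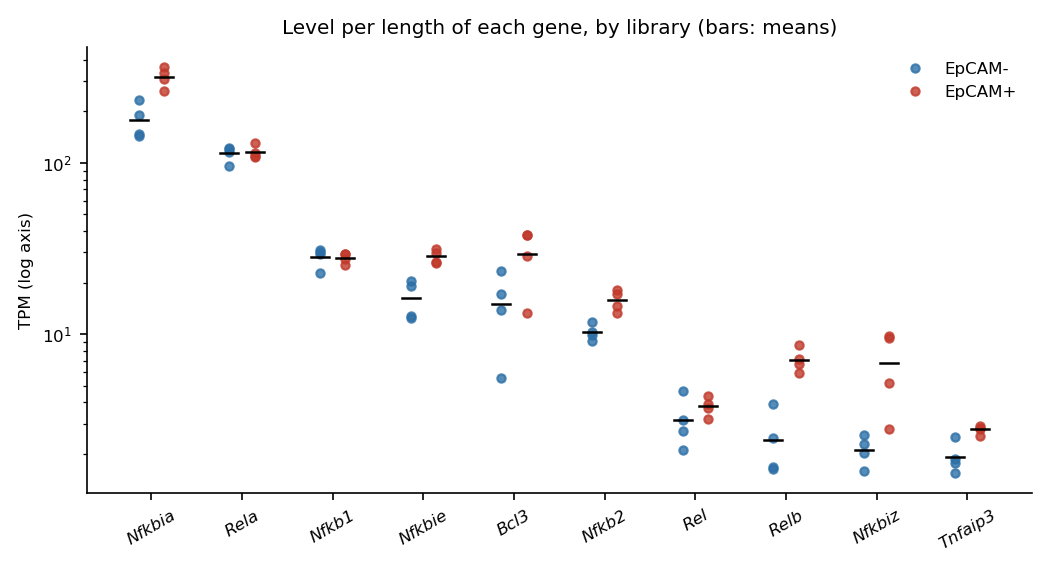
Level per length of the 10 genes in TPM on a log axis, each point being 1 library, with EpCAM- in blue, EpCAM+ in red and black bars for means. Nfkbia (317 and 179 TPM) and Rela (116 and 114 TPM) lie above the other genes, and Relb, Nfkbiz, Rel and Tnfaip3 lie below 10 TPM in both fractions.

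The EpCAM+ libraries did not differ equally from the EpCAM- fraction. The median excess of the 10 genes over the mean of the EpCAM- libraries, in log2 CPM, was 0.84, 0.68, 0.56 and 0.40 in EpCAM+ replicates 1 to 4. EpCAM+ replicate 1 was the highest library of its fraction for 7 of the 10 genes, and EpCAM+ replicate 4 the lowest for 5. Among EpCAM- libraries, replicate 1 was the highest for 5 genes and replicate 4 for 4.

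Marker genes of other cells moved with the same contrast. Across all tested genes, 21.8% were higher and 20.8% lower in EpCAM+ cells. Of the dendritic cell list, 11 of 14 tested genes were higher in EpCAM+ cells, led in reads by Cd74, the invariant chain of MHC class II (4525 ± 3828 against 64.2 ± 70.3 CPM, SD, n = 4 each). Its defining genes Xcr1 and Clec9a, a chemokine receptor and a dead-cell receptor of cross-presenting dendritic cells, gave 202 to 2251 and 22 to 420 counts in EpCAM+ libraries against 2 to 13 and 0 to 9 counts in EpCAM- libraries. Of the B cell list 4 of 8 were higher, while Pax5, the B lineage regulator, had 0 counts in all libraries.

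Of the plasma cell list, 4 of 7 tested genes were higher. Of the T cell list all 3 tested genes were higher, among them Lck, a kinase of T cell receptor signalling (55.4 against 21.9 CPM), while Cd3e had at most 1 count. Higher too was Klrk1, the only tested gene of the natural killer cell list. Myeloid and erythroid genes ran the other way, with 5 of 11 neutrophil genes, 4 of 11 monocyte and macrophage genes, 4 of 7 mast cell and basophil genes and 6 of 10 erythroid genes lower in EpCAM+ cells, and 1 monocyte and macrophage gene and 1 erythroid gene higher. Mpo, the myeloperoxidase gene, measured 781 CPM in EpCAM+ and 10435 CPM in EpCAM- libraries. Neutrophil list sums were 1196 to 1940 CPM in EpCAM+ and 12017 to 18688 CPM in EpCAM- libraries. In the megakaryocyte list 1 of 7 genes was higher, and in the stem and progenitor list 11 of 20 were higher and 1 lower.

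The order of the EpCAM+ libraries differed between these sums and several of the 10 genes. EpCAM+ replicate 2 had the lowest dendritic and B cell sums of its fraction (1742 and 1364 CPM), above the highest EpCAM- sums (873 and 322 CPM). It gave more Relb (9.53 CPM), Nfkbia (182), Nfkbie (33.4), Nfkb2 (20.7) and Nfkbiz (9.64) than any EpCAM- library. EpCAM+ replicate 4 had the highest dendritic cell sum and the lowest Relb, Nfkb2, Nfkbia, Tnfaip3 and Bcl3 of its fraction. EpCAM+ replicate 1, with nearly the same dendritic cell sum and the highest B and plasma cell sums, was the highest library of its fraction for 7 of the 10 genes, Relb, Nfkb2, Nfkbia and Bcl3 among them. Without EpCAM+ replicates 1 and 4, an alternative chosen after these sums were seen, 5 of the 10 genes were called higher. Of all 14043 genes tested in that fit, 1819 were called higher. In either direction 26.2% were called, against 42.6% with all libraries. The log2 fold changes were then 1.42 for Relb (adjusted p = 0.0131), 0.53 for Nfkb2 (0.0269), 0.76 for Nfkbia (0.0100), 0.69 for Nfkbie (0.0389) and 1.72 for Nfkbiz (0.00436), while Tnfaip3 did not pass (adjusted p = 0.185). Without EpCAM+ replicate 1 alone, Relb stood at 1.38 (adjusted p = 0.00516). What part other cells in the sort have in these values was not tested.

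**Figure D4:**
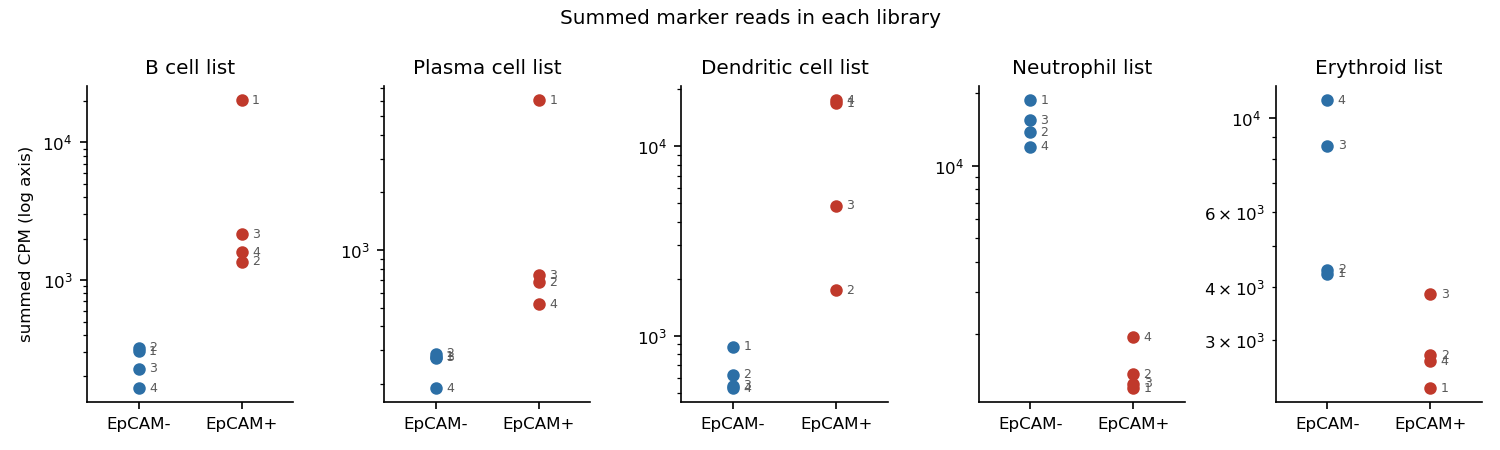
Summed CPM of 5 cell marker lists in each library on log axes, with EpCAM- in blue, EpCAM+ in red and numbers for replicates. B cell, plasma cell and dendritic cell sums are higher in all EpCAM+ libraries and uneven among them (1742 to 17479 for the dendritic cell list), and neutrophil and erythroid sums are lower in all of them.

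Other genes of the pathway, grouped by role, gave a setting for the 10. Of 126 further genes on 5 lists, 104 were tested, of which 32 were higher and 11 lower in EpCAM+ cells. That is 41.3% called, close to the 42.6% of all tested genes, with a median log2 fold change of 0.24 against 0.02. A filter on low reads keeps a gene that is present in 1 fraction only, so these counts describe the tested genes and not whole lists.

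Upstream, the kinases and adaptors that activate the canonical arm gave calls in both directions, 4 higher and 5 lower among 28 tested genes. These calls made up 32.1%, against 42.6% of all tested genes, around a median log2 fold change of 0.07. The IKK genes Chuk, Ikbkb and Ikbkg had log2 fold changes of 0.17, 0.09 and 0.10 (adjusted p = 0.326, 0.297 and 0.429). Among the genes that passed, Traf5 (0.86), Tab2 (0.28) and Tbk1 (0.25) were higher, whereas Card9 (-1.50), an adaptor of fungal recognition, Tank (-0.39), Rbck1 (-0.27) and Ube2n (-0.20) were lower, all as log2 fold changes.

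Of the 12 genes of the noncanonical list 8 were tested, and 5 passed as higher, against 21.8% of all tested genes. Chuk, Traf3 and Ltbr did not pass, no tested gene had a fitted decrease, and the median log2 fold change was 0.35. The count of higher genes was 3 without EpCAM+ replicate 3 or without EpCAM+ replicate 4, and 2 without EpCAM+ replicates 1 and 4. Calls in either direction over all tested genes were 33.9%, 37.5% and 26.2% in these fits, against 42.6% with all libraries. Map3k14, which encodes NIK, the kinase of this arm, gave 157, 116, 109 and 102 counts in EpCAM+ libraries and 59, 52, 47 and 30 counts in EpCAM- libraries, without overlap. Its log2 fold change was 1.19 (SE 0.24, adjusted p = 0.00333).

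Tnfrsf13c, the receptor gene for the B cell survival factor BAFF, rose from 4.63 to 12.1 CPM and Tnfrsf11a, which encodes the receptor RANK, from 0.82 to 3.40 CPM. Birc2, a ubiquitin ligase gene that holds NIK low, rose by 0.29 on the log2 scale (adjusted p = 0.0238). Traf3, whose product links NIK to that ligase, had a log2 fold change of 0.04 and did not pass.

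Of the other inhibitors, 5 of 20 tested genes rose and 2 fell, around a median log2 fold change of 0.14. Together 35% were called, against 42.6% of all tested genes. Tnip3, which encodes a partner of the Tnfaip3 protein, rose from 5.65 to 26.4 CPM (log2 fold change 2.22, adjusted p = 0.000165), and Pdlim2, which promotes the destruction of nuclear RelA, rose from 21.8 to 50.0 CPM (adjusted p = 0.000179). Tnip2 (0.59) and the deubiquitinase gene Cyld (0.43) were higher as well. Nkrf, a repressor gene, was lower at -0.63, as was Nfkbib above.

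The receptor list held 18 tested genes of 21, of which 7 were higher and 1 lower. This was 44.4% called, against 42.6% of all tested genes (21.8% as higher). With 10 counts required in every library, which tests fewer genes, 4 were higher. Il18r1, a subunit gene of the interleukin-18 receptor, rose from 3.51 to 12.9 CPM, and Prkcq, a kinase gene of antigen receptor signalling, from 19.0 to 33.4 CPM. Il1rl1, which encodes the receptor of interleukin-33, fell from 19.7 to 1.43 CPM (log2 fold change -3.77, adjusted p = 0.000179). Tlr3, a sensor of viral RNA, gave 517, 54, 158 and 676 counts in EpCAM+ libraries and 6, 3, 7 and 0 counts in EpCAM- libraries. The Tlr3 counts thus stood in the same order as the dendritic cell sums of the EpCAM+ libraries.

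Of 54 target genes, 37 were tested, and 14 were higher and 3 lower in EpCAM+ cells. This was 45.9% called, against 42.6% of all tested genes (21.8% as higher). With the replicate block 22 were higher, against 25.6% of all tested genes. With 10 counts required in every library, which tests fewer genes, 10 were higher. The median log2 fold change was 0.44. Icam1, an adhesion molecule gene, rose, with 898, 772, 855 and 774 counts in EpCAM+ libraries and 417, 372, 267 and 191 counts in EpCAM- libraries (log2 fold change 1.22, adjusted p = 0.00103). Cd86, a costimulatory gene, gave 633, 161, 297 and 566 counts against 37, 23, 25 and 6, and Cd83, a maturation marker of dendritic cells, 234, 40, 105 and 245 against 0, 0, 7 and 3. Traf1 gave 214, 108, 126 and 224 counts against 46, 4, 26 and 13.

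Counts of Cd86, Cd83 and Traf1 were all highest in EpCAM+ replicates 1 and 4. Without these libraries 9 of the tested targets were higher. Over all tested genes, 1819 were called higher in that fit, against 2961 with all libraries. The targets that fell were Slc2a6 (4.18 to 0.85 CPM), a sugar transporter gene, Sod2 (297 to 205 CPM), a mitochondrial antioxidant gene, and Myc (582 to 440 CPM), a growth regulator whose libraries overlapped between the fractions. In the receptor list 5 genes, in the noncanonical list 2 and in the other inhibitor list 3 were higher without EpCAM+ replicates 1 and 4. Of all tested genes 26.2% were called in either direction in that fit, against 42.6% with all libraries.

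**Figure D5:**
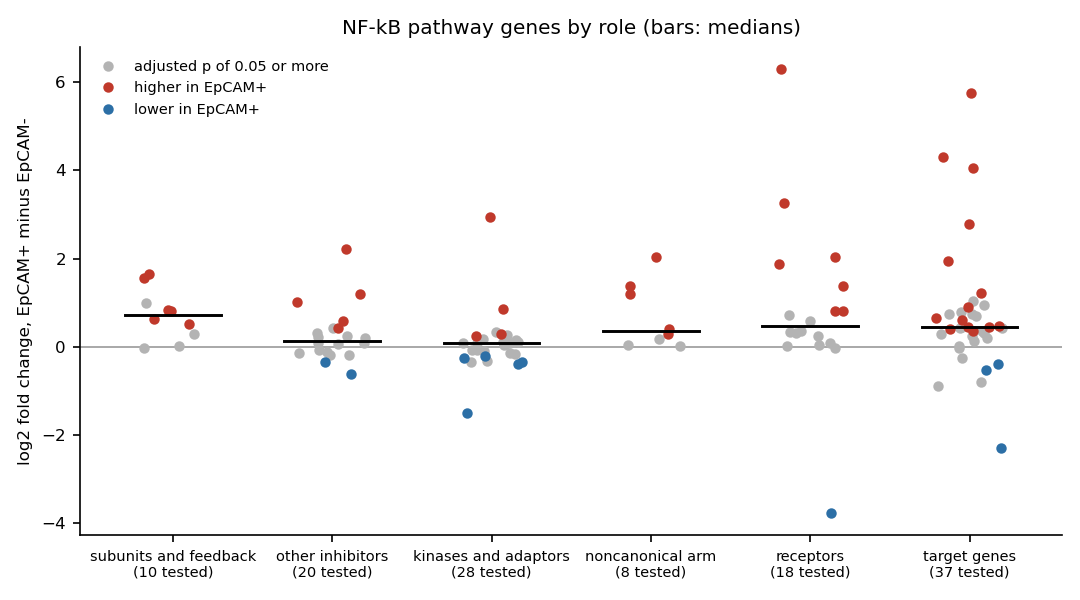
Log2 fold change of EpCAM+ over EpCAM- for the tested genes of each list, with called genes in red (higher) or blue (lower), uncalled genes in grey and black bars for medians. The median is 0.72 for the 10 subunit and feedback genes, between 0.07 and 0.46 for the other lists, and a gene on more than 1 list is drawn in each.

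Some of these genes share sequence space with others. Nfkb1 overlaps Gm43430 on the same strand (at most 29 counts in any library), Nfkb2 overlaps Psd on the other strand (at most 48) and Bcl3 overlaps the antisense gene Gm16174 (at most 10). The strand setting of the counting is not given in the sources used here, so reads within these overlaps cannot be assigned with certainty. For Nfkb2, with 165 to 398 counts per library, the reads of its neighbour are not negligible.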

How the data were processed

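RNA from sorted Zeb1-/- EpCAM+ and EpCAM- LSK cells was amplified by the authors with SMART-Seq v4 and sequenced as paired ends. Per the labels, STAR 2.6.1d (GRCm38.p6), featureCounts 1.5.0-p3 and DESeq2 1.20.0 were used. The authors deposited whole-number read counts per gene and library without normalization, FPKM values, gene lengths, and their own fold changes and p-values, which were not used here. Reads carried no molecular identifiers as described, so floors of 3 counts cover counting error only.

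Counts were analysed in R 4.3.3 with edgeR 4.0.16 (filterByExpr, TMM, two-sided quasi-likelihood test, Benjamini-Hochberg adjustment over 13560 genes, threshold 0.05). The procedure was tested on simulated data. DESeq2 1.42.0, limma 3.58.1, other scaling, other filters, blocks for replicate numbers and left-out libraries were alternatives. Standard errors came from the F statistic. TPM used the listed lengths or those implied by the deposited FPKM. Plots used Python 3.11.15 with matplotlib 3.10.9.

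The 10 genes and all lists were chosen with earlier results of these data known, so no list was tested as a set. Also named were up to 4 genes per direction and pathway list with the smallest adjusted p, marker genes with the most EpCAM+ reads, the 3 genes nearest to Relb, Epcam and Zeb1. The IKK genes, Traf3, Nfkbid, Xcr1, Clec9a, Pax5, Cd3e and the overlapping genes were named after their values were seen. A few further genes under these rules are left unreported. Libraries with equal replicate numbers deviated together from their fraction means, with correlations across genes of 0.205 to 0.356 in 4 pairs. In 12 pairs with different numbers the correlations were -0.216 to 0.0396. The labels do not say what equal numbers share, so the unpaired fit was the main test and the block an alternative. Libraries of the same fraction differed beyond sampling noise in all 12 pairs (lowest chi-square over its degrees of freedom 10.2).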

Additional observations from a re-analysis of the deposited data

How the results depend on the processing

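The log2 fold changes of Relb, Nfkb2, Nfkbia, Nfkbie and Nfkbiz kept their direction and their side of the threshold under every alternative run. Rel stayed without a call throughout. Tnfaip3 lost its call with DESeq2-type size factors in edgeR (0.51), with a filter of 1 count in any library (0.50), with the replicate block (0.54) and without EpCAM+ replicates 1 and 4 (0.47), and kept it with DESeq2 itself, limma-trend, upper-quartile scaling and library totals. It ranged from 0.40 to 0.68 with 1 library left out. Bcl3 gained its call with the replicate block (1.01), also combined with upper-quartile scaling (1.097), and ranged from 0.71 to 1.24 with 1 library left out and from 0.95 to 1.05 in the block fit without 1 replicate number. The replicate block changed no other call among the 10 genes. The block combinations and the fit without EpCAM+ replicates 1 and 4 were chosen after seeing the data.

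The sign of Nfkb1 turned with upper-quartile scaling (0.0543), library totals (0.0496) and the block with upper-quartile scaling (0.0584), and its range was -0.116 to 0.00586 with 1 library left out. Rela ranged from -0.0459 to 0.0506 with 1 library left out. In the block fit without 1 replicate number, Nfkb1 ranged from -0.104 to 0.0212, Rela from -0.00607 to 0.0578 and Tnfaip3 from 0.35 to 0.71 (0.53 without replicate 2, 0.54 without replicate 3). Bcl3 was 1.02 there without replicate 2 and 1.03 without replicate 3. None of these Nfkb1 and Rela values passed the test. Median log2 fold changes of all tested genes were 0.11 with upper-quartile scaling, 0.11 with library totals and 0.14 with the filter of 1 count in any library, which tested 25237 genes and called 22.7%.

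List counts were less stable. With 1 library left out, calls over all tested genes ranged from 4662 to 6039, against 5779 with all libraries. Higher targets became 22 with the block, and 11 to 22 with 1 library left out (22 without EpCAM+ replicate 2). Lower kinases and adaptors became 2 with library totals, also 2 with upper quartiles, and ranged from 2 to 5 with 1 library left out (2 without EpCAM+ replicate 3, and 3 without EpCAM+ replicate 1, EpCAM+ replicate 2 or EpCAM- replicate 3). Higher kinases and adaptors became 2 with the filter of 1 count in any library and ranged from 2 to 4 (2 without EpCAM+ replicate 1, EpCAM+ replicate 4 or EpCAM- replicate 3). Lower inhibitors became 1 with library totals or the filter of 1 count and ranged from 1 to 3 (1 without EpCAM+ replicate 1, EpCAM+ replicate 2 or EpCAM- replicate 3). Higher receptors became 4 with a filter of 10 counts in every library, which tests fewer genes, and ranged from 7 to 11 (11 without EpCAM- replicate 1). Higher noncanonical genes ranged from 3 to 7 (3 without EpCAM+ replicate 3 or EpCAM+ replicate 4). Without EpCAM+ replicates 1 and 4, 3675 genes were called, with 9 higher targets, 2 higher noncanonical genes, 3 higher inhibitors, 1 higher and 2 lower kinases and adaptors.

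Other causes of these shifts were not tested. The share of Nfkb1 and Rela among subunit TPM was 87.5% in EpCAM+ and 92.8% in EpCAM- libraries with lengths implied by FPKM. The looser motif was found in 7 genes in place of 6. Genes with few reads, such as Rel and Tnfaip3, are limited by the spread between 4 libraries per fraction, and an exact zero in EpCAM- libraries allows up to 3 counts.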
